A study of Arabidopsis thaliana with 12 samples.

Results

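The genes described here answered antimycin A on both growth media. Antimycin A blocks complex III of the mitochondrial electron transport chain. In plants such a block is known to change nuclear transcription through mitochondrial retrograde signalling, in which transcription factors held at the endoplasmic reticulum, NAC proteins among them, are released and act on nuclear genes. The stress genes of this response are also known to be sensitive to auxin, the growth hormone that the synthetic compound NAA imitates. How far antimycin A-induced transcripts depend on the medium is the question the design puts.

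Arabidopsis thaliana seedlings of the line labelled Col:LUC (ecotype Col-0) were grown for 10 days on B5 medium and then kept for 3 days on B5 either with 4.5 µM NAA or without it. Antimycin A was then given at 50 µM for 3 h. The 4 groups were NAA with antimycin A, NAA without it, B5 with antimycin A and B5 without it, with 3 Affymetrix arrays each from biological triplicates (12 arrays in all). The labels do not say what mock treatment the seedlings without antimycin A received, and the growth protocol also names Col-0 and Attim17-1 seed, which no array label carries. The samples were whole seedlings in bulk, so fewer cells of a type and less RNA per cell cannot be told apart.

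The genes were selected by their measured values. On each medium, the antimycin A effect was the mean of log2(intensity + 16) over the 3 treated arrays minus the mean over the 3 untreated arrays, so that an effect of 1 is a 2-fold difference. The added 16 makes this scale understate the change of dim genes. An effect of at least 2 on both media was required. Of 22746 probe sets, 307 (1.35%) reached 2 on NAA, 466 (2.05%) reached it on B5, and 227 (0.998%) reached it on both. The shared ones made up 73.9% of the NAA list and 48.7% of the B5 list. Of these 227, 22 were left out by name, which left 205. The names left out were 18 genes (UPOX, AT12CYS-2, AT2G41730, AT2G32020, AT5G43450, AT3G10930, DTX3, AT2G04070, NDB2, NDB4, HSP23.5, BGLU28, GSTU25, LDH, GRX480, XTH18, ZAT10 and ORA47) and the 7 groups of symbols beginning with UGT73, UGT76, WRKY, CML, ALDH, ATG and PUB. Of the 205, 103 carried 1 gene each in the platform annotation, 3 carried several genes, and 99 had no gene name here and enter the counts only. Because both antimycin A effects made the selection, they and their difference are given as descriptions, without a test.

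The selection cut through a continuous range of effects. The 4 named genes just inside were AT3G48450 (2.01 on NAA and 2.79 on B5), AT1G74750 (2.04 and 3.07), AT5G61560 (2.04 and 2.79) and AT1G61370 (2.04 and 2.25). The 4 just outside were AT2G32190 (2.29 on NAA and 1.99 on B5, and also 1 of the genes read by a member probe set with several genes), AT5G35735 (1.98 and 2.23), AT5G48430 (2.58 and 1.98) and AT1G66090 (1.99 and 1.98). In 94 of the 205 the smaller effect was below 2.5.

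Median intensities were 38.8 to 39.7 on the NAA arrays and 33.7 to 36.2 on the B5 arrays, and arrays of 1 group correlated at 0.990 to 0.997 on the log2(intensity + 16) scale. For these genes 1 array stood apart. Replicate 3 of B5 with antimycin A was the highest of its group for 182 of the 205 probe sets (88.8%), against 32.7% of all probe sets, and it lay a median of 0.50 above the other arrays of its group on the log2 scale. The median effect on B5, the difference between the effects and the calls between media are given without it as well. Most other results below that use it, such as the media compared with antimycin A, were not repeated without it. Control probe sets and tissue markers also moved with the treatment. The 25S ribosomal RNA control averaged 12030 ± 317 (SD, n = 3) on NAA with antimycin A, against 6081 ± 477 without it, and 8244 ± 175 on B5 with antimycin A, against 5385 ± 347 without it. The 5 measured genes of green tissue (of 7 listed: PRK, PSAN, PSAE1, LHCB4.1 and LHCB4.2) summed to 11762 to 16745 on NAA with antimycin A, against 29459 to 31940 without it. On B5 the same sum was 26764 to 32660 with antimycin A, against 45367 to 46020 without it. The root hair genes EXPA7 and EXPA18 (2 of 2 measured) summed to 45 to 64.1 on NAA with antimycin A, against 467 to 648 without it, and to 20.7 to 21.2 on B5 with antimycin A, against 124 to 202 without it. LBD16, LBD29 and PUCHI, which mark lateral root formation (3 of 4 measured), summed to 209.8 to 231 on NAA with antimycin A, against 275 to 369.9 without it, and to 22.2 to 25.5 on B5 with antimycin A, against 24.9 to 27.2 without it. The lowest single values, both on B5 with antimycin A, were 4.68 for the root hair genes and 4.84 for the lateral root genes. These lie near the bottom of the scale, as the lower quartile of the arrays was 6.38 to 7.16. The part of these controls and markers in the values below was not tested.

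Most of the 205 probe sets were induced more on B5 than on NAA. Their antimycin A effect on NAA had a median of 2.66 (quartiles 2.26 and 3.28, highest 5.74), and that on B5 a median of 3.30 (quartiles 2.69 and 4.11, highest 6.07). The effect was smaller on NAA for 162 probe sets and larger for 43. It was smaller by 1 or more for 57 and larger by 1 or more for 5. The median difference, NAA minus B5, was -0.57 over a range of -2.52 to 2.05, and 80 probe sets had effects within 0.5 of each other. Without the third B5 array with antimycin A the median effect on B5 was 3.15 and the median difference -0.38, with 150 probe sets smaller on NAA, 46 of them by 1 or more, and 7 larger by 1 or more. Both effects reached 3 in 56 probe sets and 4 in 19.

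In no member did treated and untreated arrays overlap on either medium, a condition that 12.2% of all probe sets met upward on both media and that the selection itself favours. Some started near the bottom of the scale. In 40 of the 205 the untreated mean lay below an intensity of 16 on both media. The same held for 8690 of all 22746 probe sets, so a dim start was less common among the members. The 103 with 1 gene had a median effect of 2.54 on NAA and 3.24 on B5, and 82 of them were smaller on NAA. Of these genes 11 have a symbol and 92 only a locus code as symbol, 1 of the 92 with a name among its synonyms. The plot of both effects shows the cloud below the line of equal effect.

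**Figure D1:**
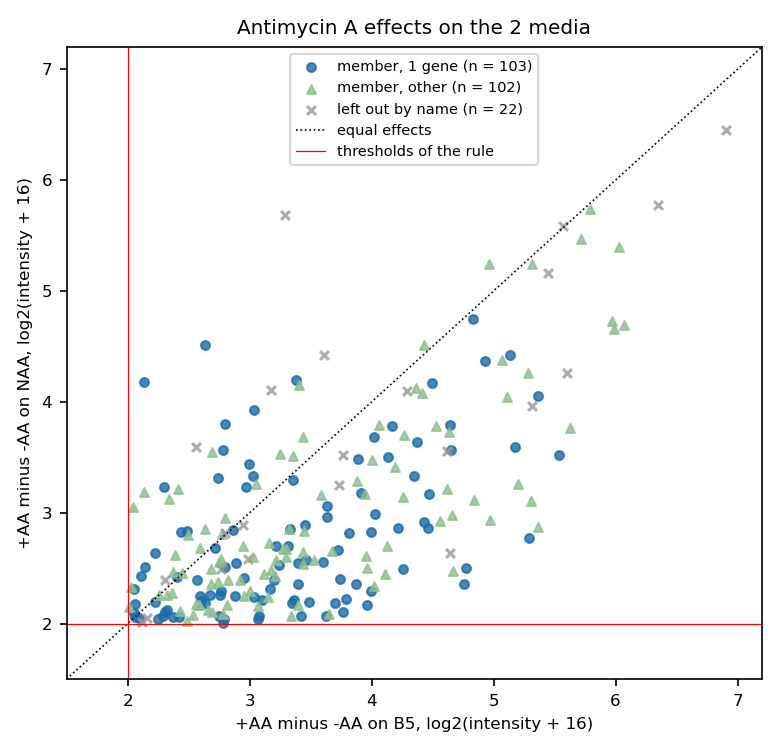
Antimycin A effect on NAA (vertical axis) against the effect on B5 (horizontal axis) for the 205 probe sets, as differences of mean log2(intensity + 16). Crosses show the 22 left out by name, which are not members. The dotted line marks equal effects: 162 of the 205 lie below it and 43 above it. No point lies under 2 on either axis because that was the selection.

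Among the 103 members with 1 gene, the 12 with the highest mean effect over both media carry only locus codes. Some of them, but not most, had untreated means below 16 on both media. AT5G42830, first of the 103, had intensities of 1914, 1429 and 1876 on NAA with antimycin A, against 58.2, 53.2 and 37.0 without it. It had 958, 948 and 1225 on B5 with antimycin A, against 23.7, 16.2 and 23.4 without it. Its effects, 4.75 on NAA and 4.83 on B5, were nearly equal, and all NAA arrays lay above the B5 arrays of the same treatment. AT4G28460 had 416, 529.5 and 541 on NAA with antimycin A, against 5.85, 8.66 and 8.67 without it. Its B5 intensities were 749, 743 and 960.5 with antimycin A, against 5.74, 11.6 and 5.81 without it. Untreated levels on the media overlapped for this gene, whereas the treated NAA arrays were all below the treated B5 arrays.

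AT2G20720 had 344, 317 and 387 on NAA with antimycin A, against 6.46, 5.77 and 5.75 without it. The B5 arrays had 974, 687 and 1059 with antimycin A, against 5.74, 6.09 and 6.37 without it. The media did not separate before treatment, and with antimycin A the NAA arrays lay lower, at a difference of -1.32 (NAA minus B5, log2). AT5G14730 was brighter throughout, at 1209, 1081 and 1216 on NAA with antimycin A, against 39.3, 43.3 and 41.8 without it. It read 1601, 1475 and 2062 on B5 with antimycin A, against 43.5, 38.1 and 38.9 without it. Again only the treated arrays separated the media. AT1G74870 showed the same arrangement, with 227, 229 and 292 on NAA with antimycin A, against 5.54, 5.86 and 6.26 without it. Its B5 values were 789, 534 and 1083 with antimycin A, against 5.78, 5.77 and 5.79 without it.

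Among these 12, AT5G42830 was the exception. For the other 11 the effect was smaller on NAA, at a difference of -2.52 to -0.32 (NAA minus B5), and their treated NAA arrays were all below their treated B5 arrays. The share of all probe sets with treated arrays so arranged was not counted. The treated arrays also entered the choice of these 12, so nothing is read from that count. AT2G22880 (4.17 on NAA and 4.49 on B5) and AT1G19020 (3.79 and 4.17) had the most similar effects among these 11. AT2G23270, AT1G52200 and AT3G45730 had effects of 3.80, 3.57 and 3.64 on NAA, against 4.65, 4.65 and 4.37 on B5. AT3G09405 and AT2G18690 also differed between the media without antimycin A and are described further on.

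**Figure D2:**
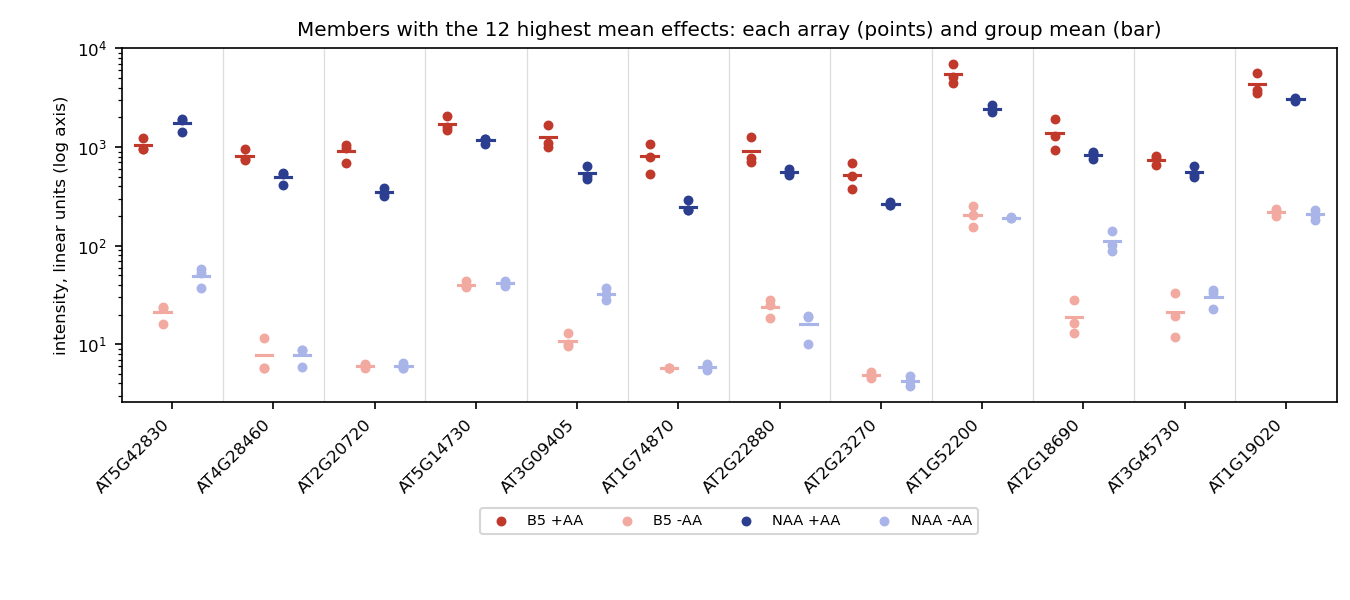
Intensity on each array (points, logarithmic axis in linear intensity units) and group mean (bar) for the 12 of the 103 members with 1 gene that had the highest mean antimycin A effect, in 4 groups of 3 arrays. Treated and untreated arrays are separate on both media for each gene, and only AT5G42830 has its treated NAA arrays above its treated B5 arrays.

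A total of 12 genes had a name beyond the locus code, and they spanned transcription, receptor signalling, proteolysis, cell-wall and small-molecule enzymes and growth. The set of all 12 was drawn up after values were seen. The 1 transcription regulator among them was BZIP60, a membrane-bound factor known for the unfolded protein response of the endoplasmic reticulum. BZIP60 had intensities of 2582, 2275 and 2452 on NAA with antimycin A, against 415, 459 and 464 without it. On B5 it had 2936, 3546 and 4513 with antimycin A, against 483, 454 and 422 without it. Untreated levels on the media overlapped, and the treated NAA arrays were all below the treated B5 arrays.

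The receptor-like kinases were SD1-29 and B120. SD1-29, an S-domain receptor kinase known for sensing bacterial medium-chain hydroxy fatty acids, had 382, 385 and 488 on NAA with antimycin A, against 65.3, 76.9 and 55.9 without it. It had 920.5, 1053 and 1078 on B5 with antimycin A, against 60.1, 61.6 and 61.1 without it. The untreated groups overlapped, and the treated NAA arrays were lower, at a difference of -1.26 (NAA minus B5, log2). AT1G61360, AT1G61370 and SD1-29, all members, are 3 consecutive protein-coding genes in the RefSeq order (TAIR10.1), with AT1G61370 in the middle. AT1G61360 had 302 to 406 on NAA with antimycin A, against 36.3 to 44.5 without it. Its B5 intensities were 429 to 568 with antimycin A, against 32.4 to 33.5 without it. AT1G61370 had 80.1 to 137 on NAA with antimycin A, against 12.6 to 15.7 without it, and 108 to 147 on B5 with antimycin A, against 12.9 to 15.0 without it. Treated and untreated arrays were separate for both genes. Effects on B5 were 3.74 for SD1-29, 3.32 for AT1G61360 and 2.25 for AT1G61370. Of the 103 genes, these 3 (2.91%) had a member as direct neighbour, and 0.941% of all measured genes had a member beside them in that order.

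B120, another S-domain kinase, was dim without antimycin A, with 147, 165 and 216 on NAA with antimycin A, against 7.61, 13.8 and 11.3 without it. It had 467, 378 and 497 on B5 with antimycin A, against 12.4, 11.3 and 15.0 without it. The treated B5 arrays lay above all treated NAA arrays. IQD22, of the IQ-domain family that binds calmodulin, was among the weakest members but very even between arrays. It had 307, 357 and 345 on NAA with antimycin A, against 54.0, 66.3 and 65.5 without it, and 417, 404 and 411 on B5 with antimycin A, against 84.9, 86.8 and 87.2 without it. Its NAA arrays were below its B5 arrays at both treatments, while the effects were 2.18 on NAA and 2.06 on B5.

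SBT3.5, a subtilisin-like serine protease, had 510.0, 502 and 712 on NAA with antimycin A, against 77.5, 104 and 115 without it. The B5 arrays had 868, 663 and 938 with antimycin A, against 34.3, 34.1 and 56.3 without it. The untreated NAA arrays were all above the untreated B5 arrays, and the treated groups overlapped. CCR2, a cinnamoyl-CoA reductase of the lignin pathway, had 275, 174 and 233 on NAA with antimycin A, against 37.3, 39.4 and 30.2 without it. It had 304, 335 and 594 on B5 with antimycin A, against 12, 14.8 and 14 without it. Its NAA arrays were above B5 without antimycin A and below B5 with it.

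AT5G64120, named PRX71 by its synonym and a class III cell-wall peroxidase, had 1012, 738 and 1085 on NAA with antimycin A, against 212, 167 and 260.3 without it. It read 1340.5, 979.8 and 2112 on B5 with antimycin A, against 86.6, 67.6 and 163 without it. Only the untreated arrays separated the media for this gene, with NAA higher. UGT87A2, a glycosyltransferase that attaches sugar to small molecules, had 1513, 1469 and 1834 on NAA with antimycin A, against 235, 237 and 318 without it, and 2208, 1723 and 2153 on B5 with antimycin A, against 156, 154 and 228 without it. Its media were likewise separate only without antimycin A. FMO, a flavin-dependent monooxygenase, had 1754, 1480.4 and 1501 on NAA with antimycin A, against 281, 231 and 343 without it. Its B5 values were 849.7, 695 and 1025 with antimycin A, against 109, 203 and 142 without it. The effects were 2.42 on NAA and 2.41 on B5, and NAA arrays were higher at both treatments.

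SUFE2 belongs to the family of proteins that stimulate cysteine desulfurase in iron-sulfur cluster assembly. It had 809, 806 and 994 on NAA with antimycin A, against 115, 125 and 158 without it. The B5 arrays had 1170.5, 1187 and 1679.7 with antimycin A, against 78.8, 123 and 121 without it. The untreated groups overlapped, and the treated NAA arrays were lower. ARL, an ARGOS-like gene that promotes organ growth through cell expansion, had 1600.2, 1823 and 1754 on NAA with antimycin A, against 203, 254 and 160.3 without it. It had 1397, 1272 and 2242 on B5 with antimycin A, against 65.0, 87.3 and 96.8 without it. Treated levels overlapped between media, and the smaller effect on NAA (2.99, against 4.03 on B5) came with an untreated level higher by 1.16. ZCF37 had 334, 267 and 276 on NAA with antimycin A, against 13.1, 11.3 and 12.3 without it, and 273, 258 and 508 on B5 with antimycin A, against 33.9, 24.2 and 24.7 without it. Here the untreated arrays were lower on NAA, and the effect was 3.44 on NAA and 2.99 on B5.

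**Figure D3:**
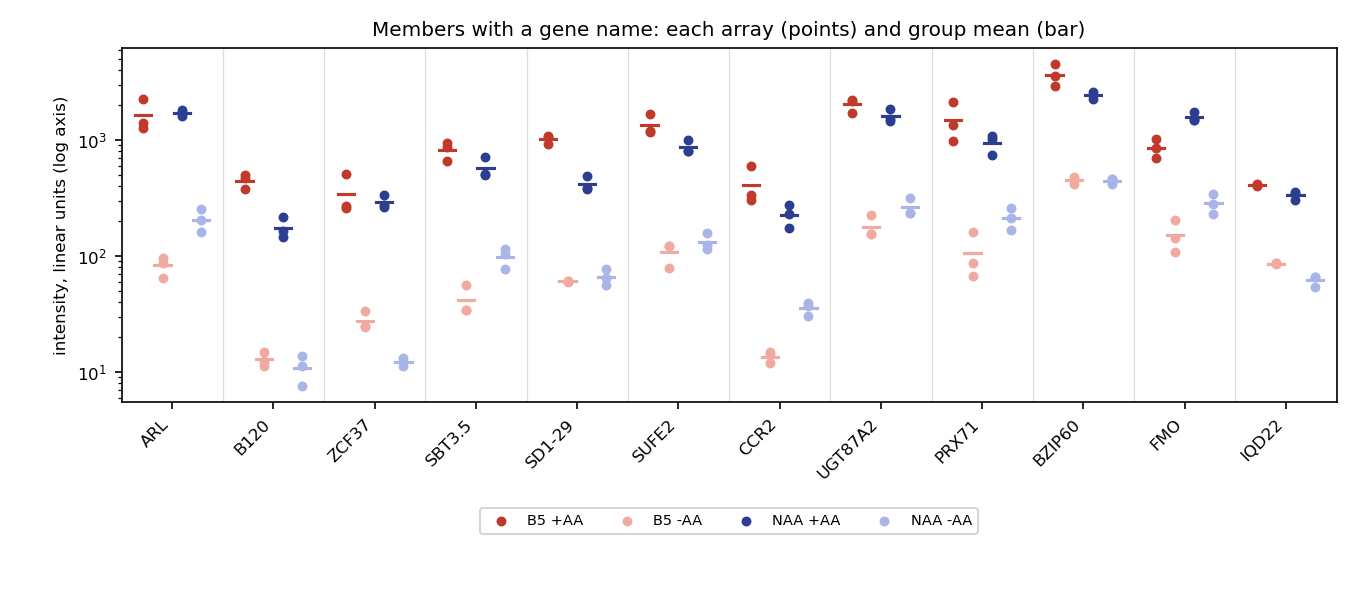
Intensity on each array (points, logarithmic axis in linear intensity units) and group mean (bar) for the 12 members with a gene name, in 4 groups of 3 arrays. Treated arrays lie above untreated ones throughout, and the media differ without antimycin A for ARL, SBT3.5, CCR2, UGT87A2, PRX71 and FMO (NAA higher) and for ZCF37 and IQD22 (NAA lower).

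Of the genes listed as known mitochondrial retrograde targets, 12 of 19 matched a probe set with 1 named gene. The others may be read by probe sets with no gene name here, members included. Of these 12, 1 (AT4G01870) belonged to the genes described here, and the other 11 were among those left out by name. AT4G01870 had 2887, 2763 and 3265 on NAA with antimycin A, against 452, 430.5 and 642 without it. It had 3774, 2848 and 4989.9 on B5 with antimycin A, against 323, 415 and 421 without it. The 11 listed regulators, the 9 mitochondrial import and folding genes and the 5 carriers matched no probe set with 1 named gene, and they were not analysed here.

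The medium effect averaged over antimycin A (the mean of NAA with and without it minus the mean of B5 with and without it) was not used in the selection and was tested for each probe set. Its error is uncorrelated with both antimycin A effects where arrays vary equally. That does not hold for the 40 members whose untreated means lay below 16 on both media: there the untreated arrays hardly vary, and the averaged effect is close to the difference of the antimycin A effects divided by 2. Calls among these 40 enter the counts, but for the single genes among them only values are given, without a test. Equal variation is not assured for the other members either. Over the 205, replicate 3 of B5 with antimycin A lay a median of 0.50 above the other arrays of its group. Calls of the other members may therefore share error with the selection. In limma with Benjamini-Hochberg adjustment over 22746 probe sets, 6792 probe sets (29.9%) were called at an adjusted p below 0.05, 3670 higher on NAA (16.1%) and 3122 lower (13.7%). Of the 205, 30 were called higher on NAA (14.6%), 61 were called lower (29.8%) and 114 were not called. The share higher was near the background, and the share lower was above it. The second part depended on scaling: with the arrays centred on their medians, which moved the median effect of all probe sets to -0.12, the calls were 2758 higher and 12018 lower over all, and 44.4% of the 205 were called lower on NAA, against 52.8% of all probe sets. After quantile normalization the shares lower were 29.8% of the 205 and 18% of all. Without the third B5 array with antimycin A, 37 were called higher (18%, against 14.6% of all) and 56 lower (27.3%, against 12.6% of all). Leaving out of the count the probe sets with untreated means below 16 on both media, a choice made after the values were seen, 28 of 165 members were called higher (17.0%, against 24.6% of such probe sets over all) and 42 lower (25.5%, against 18.9%). Errors of averaged medium effects are standard errors throughout. The median averaged effect was -0.18, against -0.01 over all probe sets, and 8 called members in each direction reached 2-fold (3.90% either way, against 2.14% of all probe sets higher and 1.23% lower). Among the 103 with 1 gene, 13 were called higher (12.6%) and 36 lower (35.0%). Of the 103, 22 had untreated means below 16 on both media, so nothing is read from these shares.

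The averaged effect nets out unlike differences. Without antimycin A the media differed by a median of 0.06 (NAA minus B5), with 142 of the 205 within 0.5, 45 above and 18 below. With antimycin A the median was -0.47, with 98 below -0.5, 28 above 0.5 and 79 between. These medium differences at each treatment were not tested, since both enter the selection. Those with antimycin A were not repeated without the third B5 array. The plot of the medium differences shows most points near 0 on the untreated axis and below 0 on the treated one.

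**Figure D4:**
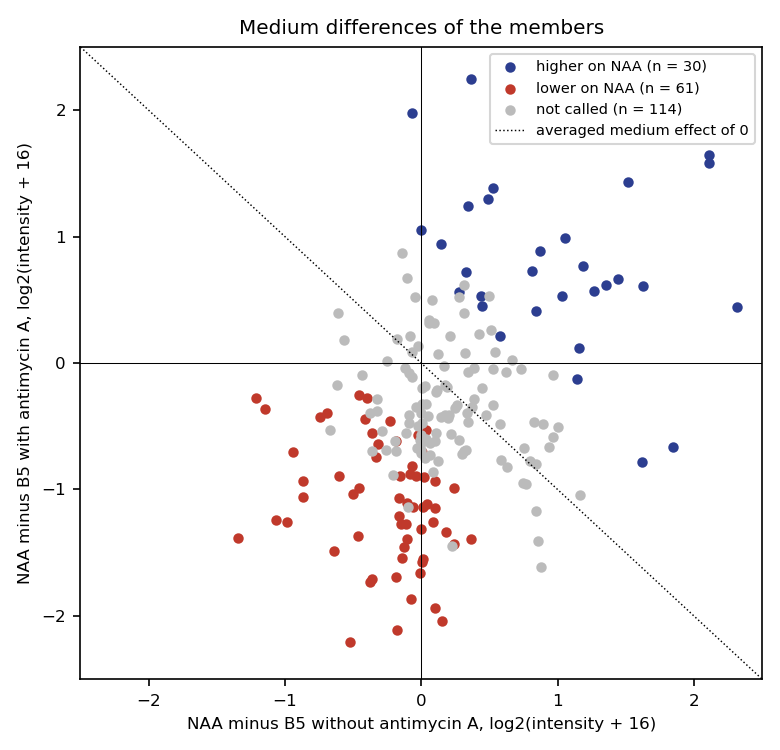
Difference between media, NAA minus B5, with antimycin A (vertical axis) against the same difference without antimycin A (horizontal axis), as mean log2(intensity + 16), for the 205 probe sets. With antimycin A, 98 lie below -0.5 and 28 above 0.5, against 18 and 45 without it.

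AT5G39580 had the highest averaged medium effect of the named genes and was induced more on NAA. It had 747, 721 and 784 on NAA with antimycin A, against 13.9, 18.5 and 20.3 without it. On B5 it had 132, 111 and 208 with antimycin A, against 8.99, 11.6 and 9.49 without it. NAA arrays were above B5 arrays at both treatments, by 2.25 with antimycin A and 0.36 without it, and the averaged effect was 1.31 ± 0.13 with an adjusted p of 7.19e-05 in limma. AT3G48450 (averaged effect 1.05 ± 0.13, adjusted p 0.00036), AT1G10990 (0.98 ± 0.13, adjusted p 0.000405), FMO (0.88 ± 0.16, adjusted p 0.00268) and AT4G38540 (0.78 ± 0.10, adjusted p 0.000324) came next in limma among called genes whose NAA and B5 arrays did not overlap at either treatment. All 4 had NAA arrays above B5 arrays both with and without antimycin A. AT3G48450 had 294 to 369 on NAA with antimycin A, against 50.2 to 101 without it, and 173 to 222 on B5 with antimycin A, against 13.7 to 17.5 without it.

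AT2G25735 was lowest on NAA relative to B5. It had 295, 269.9 and 423 on NAA with antimycin A, against 29.9, 41.4 and 39.8 without it. Its B5 values were 587, 854 and 1296 with antimycin A, against 165, 98.4 and 101 without it. The antimycin A effect was the same size on both media (2.68 on NAA and 2.72 on B5), and NAA arrays were below B5 arrays at both treatments, with an averaged effect of -1.36 ± 0.21 and an adjusted p of 0.00111 in limma. AT1G66940 repeated this arrangement, with effects of 2.39 on NAA and 2.57 on B5 and an averaged medium effect of -1.15 ± 0.12 (adjusted p 0.000114, limma). AT2G24600 (-1.06 ± 0.18, adjusted p 0.00174), AT1G35210 (-0.75 ± 0.16, adjusted p 0.00781) and AT5G03380 (-0.58 ± 0.12, adjusted p 0.00437) were also called lower on NAA in limma. In all 5 the NAA arrays were below the B5 arrays at both treatments. That was fixed by the choice, which took only called genes whose media did not overlap at either treatment. Genes with overlap were passed over, such as AT3G23550, with an averaged effect of -1.05 and overlapping untreated arrays.

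Of the 12 members with 1 gene and the highest mean antimycin A effect, 1 whose NAA arrays were higher at both treatments was called, AT5G42830, with an averaged effect of 0.77 ± 0.12 (adjusted p 0.0012, limma). AT2G18690 was also called higher (0.59 ± 0.19, adjusted p 0.0405), but its medium differences had opposite signs with and without antimycin A. AT1G52200 (-0.60 ± 0.13, adjusted p 0.0066), AT5G14730 (-0.25 ± 0.08, adjusted p 0.0379) and AT2G22880 (-0.48 ± 0.15, adjusted p 0.0384) were called lower on NAA in limma. The 4 that were dim without antimycin A on both media, AT2G20720, AT1G74870, AT2G23270 and AT4G28460, had averaged effects of -0.66, -0.79, -0.47 and -0.35. AT3G45730, AT3G09405 and AT1G19020 were not called (0.0949 to 0.878).

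Of the 12 named by function, SD1-29 (-0.59 ± 0.08, adjusted p 0.000584), IQD22 (-0.34 ± 0.05, adjusted p 0.000666) and BZIP60 (-0.29 ± 0.09, adjusted p 0.0448) were called lower on NAA in limma. B120, dim without antimycin A on both media, had an averaged effect of -0.69. FMO and ARL (0.64 ± 0.16, adjusted p 0.016) were called higher. SBT3.5, CCR2, UGT87A2, PRX71, SUFE2 and ZCF37 were not called, with adjusted p-values of 0.0886 to 0.956. For CCR2 the averaged effect of 0.01 is the sum of a difference of -0.77 with antimycin A and 0.80 without it, divided by 2.

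Several calls lay close to the threshold and were lost when single arrays were left out. BZIP60 lost its call without 10 of the 12 arrays (adjusted p 0.0574 to 0.101, limma), all but replicates 1 and 3 of B5 with antimycin A. AT2G18690 lost it without 9 arrays (0.0554 to 0.0913), and so did AT5G14730 (0.0539 to 0.0852), whose call stayed only when a B5 array with antimycin A was left out. AT2G22880 was not called without any 1 of the NAA arrays with antimycin A, NAA replicate 1 without it or B5 replicates 1 and 3 without it (0.0548 to 0.0871). AT5G48540 lost its call without NAA replicates 1 and 3 or B5 replicates 1 and 2 with antimycin A, or NAA replicate 1 without it (0.055 to 0.0662). ZCF37 passed the threshold without the second or the third B5 array with antimycin A (0.0477 and 0.045), AT1G19020 without the first of these (0.0444), and AT1G05060 without the second NAA array with antimycin A (0.0334).

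Among the few genes with a larger effect on NAA, the media differed in the treated arrays for some and in the untreated arrays for others. AT5G20790 had the widest difference, an effect of 4.18 on NAA and 2.13 on B5. It had 673, 439 and 414 on NAA with antimycin A, against 14, 16.6 and 7.18 without it. On B5 it had 107, 116 and 121 with antimycin A, against 18.3, 14.4 and 9.07 without it. The untreated groups overlapped, and all treated NAA arrays exceeded all treated B5 arrays. AT1G05060 was similar but smaller, with effects of 3.80 on NAA and 2.79 on B5. AT1G76600 was of the other kind: its effect was 3.23 on NAA and 2.30 on B5, yet its treated arrays overlapped and its untreated NAA arrays were lower, at a difference of -1.21 (NAA minus B5). Its intensities were 2497 to 3212 on NAA with antimycin A, against 195 to 398 without it, and 2922 to 4186 on B5 with antimycin A, against 586 to 799 without it.

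In 19 of the 205 probe sets, 10 of them with 1 gene, every NAA array was above every B5 array without antimycin A and below every B5 array with it. This arrangement was found in 1.4% of all probe sets, and the opposite one, which 1.15% of all showed, in 1 of the 205. Since a smaller effect on NAA was common in the selection, nothing is read from that share. The 10 genes were chosen for this pattern after their values were seen. AT2G18690 had 882, 759.6 and 871 on NAA with antimycin A, against 103, 88.0 and 140.3 without it. On B5 it had 1307, 939 and 1942 with antimycin A, against 16.4, 27.8 and 13.0 without it. Most of its difference in effect (-2.52) lay in the untreated arrays, where NAA was higher by 1.85.

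AT5G48540 was arranged in the same way, with 1217, 1138 and 1232 on NAA with antimycin A, against 237, 212 and 210.4 without it. It had 1976, 2014 and 2210.4 on B5 with antimycin A, against 70.9, 39.3 and 78.4 without it. The difference between media, NAA minus B5, was -0.78 with antimycin A and 1.62 without it. AT3G16530 had 2103, 1537 and 2301 on NAA with antimycin A, against 288, 292 and 428 without it. Its B5 values were 4709, 5287 and 5640.1 with antimycin A, against 281, 109 and 170.5 without it. For this gene the treated arrays contributed more (-1.41) than the untreated ones (0.86).

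AT3G09405 had 476 to 648 on NAA with antimycin A, against 27.9 to 37.2 without it, and 1008 to 1672 on B5 with antimycin A, against 9.50 to 13.1 without it. AT1G33030 was dim without antimycin A on both media, with 91.5 to 94.6 on NAA with antimycin A, against 6.64 to 8.80 without it, and 236 to 286 on B5 with antimycin A, against 4.60 to 5.57 without it. Its difference between media was -1.33 with antimycin A and 0.18 without it. AT2G18690 and AT5G48540 (0.42 ± 0.12, adjusted p 0.0274) were called higher in limma, 7 were not called, and AT1G33030, dim without antimycin A on both media, had an averaged effect of -0.58.

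**Figure D5:**
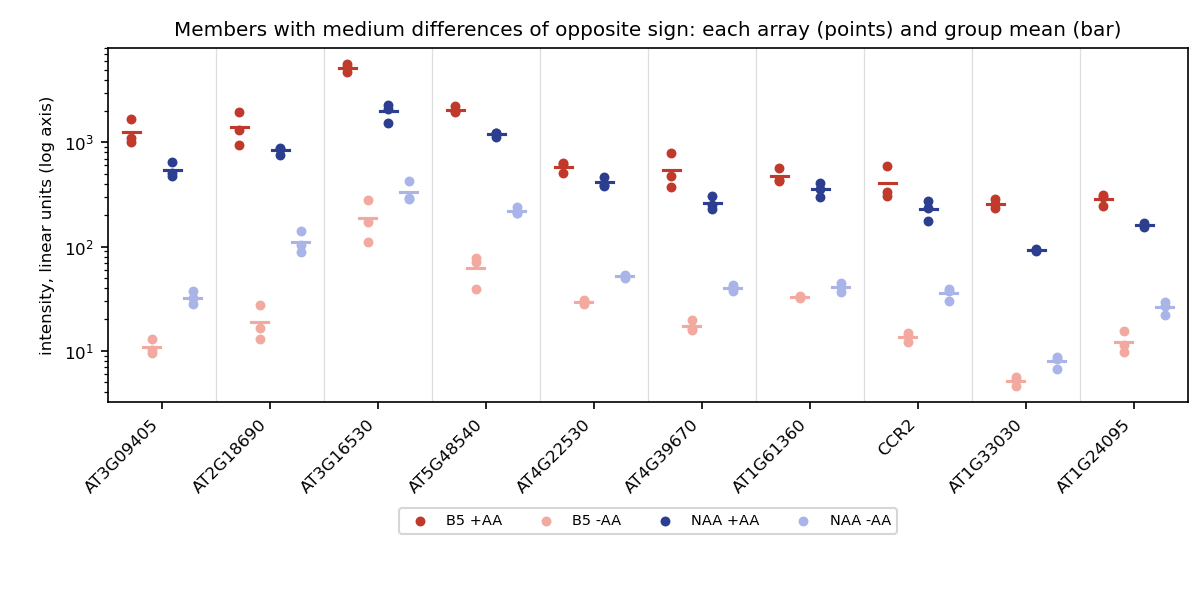
Intensity on each array (points, logarithmic axis in linear intensity units) and group mean (bar) for the 10 genes whose NAA arrays lay above B5 without antimycin A and below B5 with it. The distance between treated and untreated arrays is shorter on NAA for each of them, with effects that differ by -2.52 to -0.61 (NAA minus B5) on the log2(intensity + 16) scale.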

How the data were processed

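The authors deposited 1 intensity per probe set and array on a linear scale. MAS5, RMA and Partek are listed in the submitters' processing notes with no role or version, so which of them made each intensity, and with which background correction and normalization, is not known here. The values were not normalized again. After removal of 64 control probe sets, 22746 of 22810 were kept with no filter on dim ones, and log2(intensity + 16) was fitted with limma 3.58.1 in R 4.3.3, with 1 mean for each of 4 groups over 12 arrays, 8 residual degrees of freedom and p-values adjusted by Benjamini-Hochberg across the whole table. The number of arrays limits the precision. SDs are of linear intensities, with n = 3. No detection calls were used.

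Genes were named from the platform annotation, updated through RefSeq's table for TAIR10.1. Genes and lists were chosen with earlier results of these data known. Genes named in the text were the 12 with the highest mean effect, up to 3 per role, the 5 highest and lowest medium effects among called genes whose media did not overlap at either treatment, the 4 extremes of the difference between media in either direction, the 4 nearest the threshold on either side and the listed pathway genes. SUFE2 and the genes with opposite medium differences were added after values were seen. The test was checked on simulated data. Alternatives were other added constants, quantile normalization, median centring, a filter on dim probe sets, array weights, the replicate number as a block, other thresholds and each array left out in turn. Sequence motifs in promoters were not analysed here.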

Additional observations from a re-analysis of the deposited data

Results flagged for a closer look

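In 10 genes all 3 NAA arrays lay above all 3 B5 arrays without antimycin A and below all 3 B5 arrays with it. The difference between media thus had opposite signs with and without antimycin A. Of all probe sets 1.4% showed this arrangement, and nothing is read from the count of 10. The untreated arrays of AT1G33030 lay near the bottom of the scale, at 6.64 to 8.80 on NAA and 4.60 to 5.57 on B5. The difference between the antimycin A effects (NAA minus B5, log2) was -2.52 for AT2G18690, -2.40 for AT5G48540, -2.27 for AT3G16530, -2.02 for AT3G09405, -1.70 for AT4G39670, -1.57 for CCR2, -1.51 for AT1G33030, -1.35 for AT1G24095, -1.06 for AT4G22530 and -0.61 for AT1G61360. The difference was not tested, because both effects chose these genes.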

How the results depend on the processing

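The number of probe sets selected was 205 and depended on the added constant and the threshold: it was 314 with 1 added in place of 16, 103 with 64, 383 at a threshold of 1.5 and 111 at 2.5. With single arrays left out it was 191 to 220. Members called higher on NAA numbered 25 to 37 and those called lower 41 to 64 without single arrays, and all calls 5713 to 6768. At an adjusted p below 0.01 in limma, 20 members were called higher (9.76%, against 10.6% of all probe sets) and 34 lower (16.6%, against 8.69%). With a minimum of 2-fold, 8 were higher and 8 lower (3.90% either way, against 2.14% of all higher and 1.23% lower). Median centring of the arrays shifted the median medium effect of all probe sets to -0.12 and raised all calls to 14776, of which 18.7% were higher on NAA, against 54.0% without it. The share higher was also below an even split with quantile normalization (45.9%), an intensity trend (47.1%) and array weights (49.7%). After median centring, members were then 28 higher and 91 lower (44.4% lower, against 52.8% of all), so that their share lower was no longer above that of all probe sets. Equal numbers in the labels were not taken to pair the arrays, since not every pair's correlation was over 0.1. Same-numbered arrays of different groups had deviations correlated at -0.10 to 0.35, over 0.1 in 5 of 18 pairs. Their median correlation was 0.07, against -0.04 for arrays of unlike number. The array of another group that matched best had the same number in 42 of 72 cases, against 24 if numbers carried nothing. Both are a hint of shared number from the data and not from the design. With the replicate number as a block, 32 members were higher (15.6%, against 16.1% of all probe sets) and 61 lower (29.8%, against 13.9%). In that fit 6816 probe sets were called, and BZIP60 (adjusted p 0.066, limma) and AT2G18690 (0.054) were no longer called. For 49 named genes, 1078 alternative values gave 61 lost calls, 16 gained calls and no reversed one. Of the lost calls, 9 were of AT5G61560 and 6 of AT4G28460. Both genes were dim without antimycin A on both media, so nothing is read from their calls. BZIP60 lost its call in 13 of 22 settings, AT2G18690 in 11, AT5G14730 in 9, AT2G22880 in 7 and AT5G48540 in 6, and ZCF37 gained one in 6. Alternatives for listed pathway genes were not run: of the 12 matched to a probe set with 1 named gene, 1 is a member and 11 were left out by name. Promoter motifs were not run either. No detection calls limit the reading of intensities near the bottom of the scale.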

Other observations

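The 99 probe sets with no gene name here had antimycin A effects of 2.02 to 5.74 on NAA (median 2.73) and of 2.03 to 6.07 on B5 (median 3.34). In the averaged medium effect 17 of them were called higher on NAA (17.2%, against 16.1% of all probe sets), 24 lower (24.2%, against 13.7%) and 58 neither way (limma, adjusted p below 0.05). Probe sets dim without antimycin A on both media are among the 99, so nothing is read from these shares. The 22 probe sets left out by name had median effects of 3.58 on NAA and 3.67 on B5, and 15 of the 22 were smaller on NAA.

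The probe sets that reached an effect of 2 on 1 medium alone differed between media by their selection. The 80 that reached it on NAA alone had a median effect of 2.28 on NAA and 1.48 on B5, and 46 of them (57.5%) were called higher on NAA in the averaged medium effect and 7 (8.75%) lower. The 239 that reached it on B5 alone had a median effect of 1.37 on NAA and 2.40 on B5, with 25 (10.5%) called higher on NAA and 99 (41.4%) lower.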
